A study of Mus musculus with 5 samples.

Results

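The AP-1 family factors described here are 10 genes of the 47729 in the count table, chosen by symbol: the FOS group (*Fos*, *Fosb*, *Fosl1*, *Fosl2*), the JUN group (*Jun*, *Junb*, *Jund*) and the ATF3 and BATF group (*Atf3*, *Batf*, *Batf3*). All 10 were found in the table and all 10 passed the filter on low counts. They were measured by poly(A) RNA-seq of dermal group 2 innate lymphoid cells (dILC2s), lymphocytes without antigen receptors, sorted from the skin of adult female C57BL/6 mice and not stimulated after sorting. The 5 libraries came from 3 wild-type (WT) pools (5, 6 and 13) and 2 pools (2 and 7) of *Rag1*-/- mice, which carry a germline loss of the recombinase gene needed to rearrange antigen receptors and so lack mature T and B cells. The comparison of genotypes asks how dILC2s of mice without adaptive lymphocytes differ from those of WT mice. The labels give 30 WT and 16 *Rag1*-/- mice, and the study's methods give another number of *Rag1*-/- mice. The cell type label of the *Rag1*-/- libraries reads type 3, against type 2 in WT libraries, while their protocol text describes dILC2s for both genotypes.

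AP-1 is not 1 protein but a set of dimers of basic leucine zipper proteins. JUN proteins pair with each other or with FOS proteins, which cannot form homodimers, and ATF3 and the BATF proteins also pair with JUN proteins. Many of these genes are immediate early genes, switched on through MAP kinases within minutes of a cytokine, growth factor or stress signal and also known to respond to enzymatic dissociation of tissue. In lymphocytes AP-1 acts with NFAT at cytokine genes, and BATF with JUN proteins and IRF4 at shared DNA elements. In the skin, AP-1 factors are also abundant in keratinocytes.

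Library depth and makeup varied. WT libraries held 32939428 to 39477243 counts in total, and the totals were 8050562 and 38922750 in *Rag1*-/- pools 2 and 7, where 3 counts, the smallest level taken as visible, correspond to 0.373 and 0.0771 CPM (the count of a gene scaled by the total of its library). The targeted gene, *Rag1*, showed no loss of transcripts in the libraries labelled *Rag1*-/-, which held 5 counts (pool 2) and 48 counts (pool 7) of it, against 4, 0 and 5 in WT libraries. Of 20 ILC2 marker genes none was at 0 in every library, and their summed level was 1469 to 2666 CPM in WT libraries and 6612 and 4379 CPM in *Rag1*-/- pools 2 and 7. For 13 ILC3 marker genes the sums were 454 to 570 CPM in WT and 1175 and 888 CPM in *Rag1*-/- pools 2 and 7. The summed level of 15 T cell genes was 78.8 to 155 CPM in WT and 491 and 397 CPM in *Rag1*-/- libraries, and that of 12 NK and ILC1 genes was 15.4 to 32.9 CPM and 104 and 132 CPM. The 40 pan-leukocyte genes summed to 1424, 3531 and 3342 CPM in WT pools 5, 6 and 13 and to 11184 and 9494 CPM in *Rag1*-/- pools 2 and 7, with all 40 estimates above 0 and 27 called higher. The 32 keratinocyte genes summed to 55965, 45232 and 39474 CPM in WT pools 5, 6 and 13 and to 9925 and 22760 CPM in *Rag1*-/- pools 2 and 7, with all 32 estimates below 0 and 12 called lower. None of either list was at 0 in every library. In bulk RNA, fewer cells of a type and less RNA per cell cannot be told apart, and the part of all these lists in the AP-1 results was not tested.

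RefSeq (GRCm38.p6) held a promoter window, from 250 bases before to 50 bases after the transcription start, for 9 of the 10 genes. *Fosl1* was not among them. *Batf* was the only member called between genotypes in the main test, and *Junb* and *Jun*, like *Fosl2* and *Fos*, changed places by counts. The 5 windows below are those of these genes. They are written 5′ to 3′ on the strand of the gene, and capitals mark every match, on either strand, to the AP-1 element TGANTCA, the CRE-like element TGACNTCA, the CArG box bound by SRF, the TATA box (TATAAA), the box known by its letters CCAAT, or the GC box (GGGCGG).
Batf promoter, chr12:85686470-85686769, plus strand: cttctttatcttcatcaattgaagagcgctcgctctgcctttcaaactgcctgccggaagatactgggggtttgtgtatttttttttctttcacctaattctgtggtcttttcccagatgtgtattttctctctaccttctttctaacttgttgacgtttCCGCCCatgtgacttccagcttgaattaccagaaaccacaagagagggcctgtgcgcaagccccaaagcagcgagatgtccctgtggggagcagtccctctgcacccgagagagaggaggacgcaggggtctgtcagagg
Fosl2 promoter, chr5:32136222-32136521, plus strand: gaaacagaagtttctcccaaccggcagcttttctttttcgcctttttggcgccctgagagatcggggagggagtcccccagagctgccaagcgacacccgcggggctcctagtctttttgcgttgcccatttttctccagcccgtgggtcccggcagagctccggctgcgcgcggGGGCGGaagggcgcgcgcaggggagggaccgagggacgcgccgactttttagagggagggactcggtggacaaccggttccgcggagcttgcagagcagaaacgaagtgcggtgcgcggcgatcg
Junb promoter, chr8:84978699-84978998, minus strand: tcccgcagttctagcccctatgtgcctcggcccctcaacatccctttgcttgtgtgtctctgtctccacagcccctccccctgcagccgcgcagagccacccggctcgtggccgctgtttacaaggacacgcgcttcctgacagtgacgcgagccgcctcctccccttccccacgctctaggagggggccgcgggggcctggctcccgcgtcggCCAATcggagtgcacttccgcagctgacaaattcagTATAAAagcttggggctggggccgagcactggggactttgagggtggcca
Jun promoter, chr4:95052173-95052472, minus strand: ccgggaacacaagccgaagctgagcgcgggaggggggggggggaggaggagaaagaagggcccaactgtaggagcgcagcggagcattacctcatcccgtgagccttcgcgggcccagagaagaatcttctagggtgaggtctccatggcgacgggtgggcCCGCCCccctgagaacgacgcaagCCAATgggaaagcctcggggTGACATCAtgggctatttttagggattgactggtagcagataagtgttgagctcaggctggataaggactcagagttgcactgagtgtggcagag
Fos promoter, chr12:85473640-85473939, plus strand: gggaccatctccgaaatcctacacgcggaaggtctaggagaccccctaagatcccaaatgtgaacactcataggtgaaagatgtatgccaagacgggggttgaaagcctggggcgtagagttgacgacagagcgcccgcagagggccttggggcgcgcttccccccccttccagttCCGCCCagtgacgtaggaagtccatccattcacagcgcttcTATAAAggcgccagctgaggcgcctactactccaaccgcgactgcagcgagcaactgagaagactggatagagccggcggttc

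The AP-1 element, counted only as the letters TGANTCA, was found in 0 of the 9 windows, against 7.81% of all 32841 promoters. The CRE-like element was found in 1, that of *Jun*, as TGACATCA at positions -45 to -38 from the start, against 8.83% of all promoters. The CArG box was found in 0 of 9, against 1.63%. Bases more than 250 before the start were not searched for this or any other element. The windows of *Fos* and *Junb* held TATAAA (2 of 9, against 13.6%), at positions -33 to -28 in *Fos* and 1 to 6 in *Junb*. The match in *Junb* thus lies at the start used here, not before it. The windows of *Atf3*, *Jun* and *Junb* held CCAAT (3 of 9, against 37.4%). A GC box was found in 7 of 9, against 35.7%, and was missing from *Junb* and *Jund*. The window of *Jund* (chr8:70697489-70697788, plus strand) lies wholly before the start that GENCODE M21 gives for this gene, 70698949. No match to 1 motif overlapped a match to another motif in these windows, and a match is a stretch of letters, not a measured binding site. The GC content of the 9 windows ranged from 46.7% (that of *Jund*) to 75.7%, against a median of 52.7% over all promoters.

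AP-1 transcripts were abundant in every library. The 10 genes together held 1.19%, 1.03% and 0.926% of all counts in WT pools 5, 6 and 13, and 0.863% and 0.887% in *Rag1*-/- pools 2 and 7. *Fos*, *Fosb* and *Junb* were among the 100 genes with the highest CPM in each of the 5 libraries. At the other end, *Batf* ranked 9760 to 11213 in WT libraries, and *Batf3* ranked between 13394 and 14838 in all 5.

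To compare levels between genes, CPM were divided by the transcript length that the deposited table gives. In WT libraries the mean level per length was highest for *Fos* (943 ± 114 CPM per kb, SD, n = 3), followed by *Atf3* (755 ± 90.8) and *Junb* (695 ± 97.8), and lowest for *Batf3* (2.19 ± 0.0829). In *Rag1*-/- libraries the highest was *Junb* (1056 ± 81.6 CPM per kb, SD, n = 2), followed by *Fos* (611 ± 78.9) and *Fosb* (432 ± 111), and the lowest was *Batf3* (2.55 ± 1.35). Neighbours in this order were not always separable. In WT, the gaps between *Atf3* and *Junb*, between *Junb* and *Fosb* and between *Fosl2* and *Jund* were smaller than the larger SD of the pair, and in *Rag1*-/- the same held for *Fosb* and *Atf3*, *Atf3* and *Fosl2*, and *Jund* and *Fosl1*. The step from the 8 more abundant genes to *Batf* exceeded the SD in both genotypes. The level per length of *Junb* exceeded that of *Fos* in both *Rag1*-/- libraries and in none of the WT libraries. The order depends on the length used. The union of GENCODE M21 exons is 3.00 times the deposited length for *Batf3*, 1.65 times for *Fosb* and 0.580 times for *Jund*. With these lengths, an alternative chosen after seeing the data, *Fos* remained first in WT and *Junb* first in *Rag1*-/- libraries, *Jund* stood above *Fosl2* in both genotypes (231 ± 61.2 against 92.0 ± 16.7 CPM per kb in WT), and *Jun* stood above *Fosb* in WT.

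**Figure D1:**
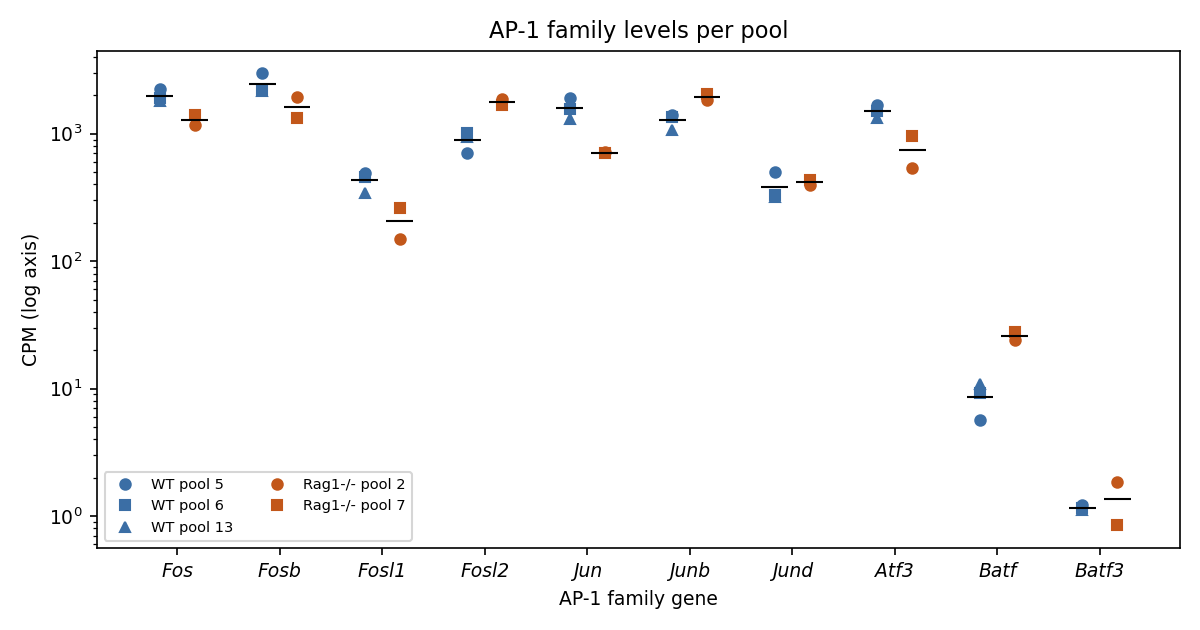
Level of each AP-1 family gene in CPM (log axis) in the 3 WT pools (blue) and the 2 *Rag1*-/- pools (orange), with group means as bars. The *Rag1*-/- pools lie above the WT pools for *Fosl2*, *Junb* and *Batf*, below them for *Fos*, *Fosb*, *Fosl1*, *Jun* and *Atf3*, and overlap them for *Jund* and *Batf3*; on the scale of the pan-leukocyte genes all 10 estimates were below 0.

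Between genotypes, 1 of the 10 genes was called by edgeR's quasi-likelihood test with a Benjamini-Hochberg adjusted p of less than 0.05 and a change of more than 1 on the log2 scale in either direction: *Batf*, which was higher in *Rag1*-/- libraries. Over all 19011 genes tested, 3.57% were called higher and 2.16% lower. Without a test, the CPM of the groups did not overlap for 8 of the 10 genes. *Rag1*-/- libraries were the higher ones for 3 of them, against 21.9% of all genes tested, and the lower ones for 5, against 24.0%. An exact permutation test of 1 gene has 10 splits with 3 against 2 libraries and cannot reach the 0.05 level, so the p-values given here use a spread estimated over all genes together. These values are relative to the whole library. When the libraries were scaled on the 40 pan-leukocyte genes instead, the median of all genes shifted from 0.02 to -2.25, 70.8% of all genes and 7 of the 10 AP-1 genes were called lower, and the log2 fold change of each of the 10 genes was below 0.

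*Batf*, whose product pairs with JUN proteins and recruits IRF4 in activated lymphocytes, lies on chromosome 12 (GRCm38, 85686669 to 85709087). It had 5.72, 9.22 and 10.9 CPM in WT pools 5, 6 and 13 and 24.2 and 27.6 CPM in *Rag1*-/- pools 2 and 7. Both *Rag1*-/- libraries thus stood above every WT library, and WT pool 5 was the lowest. *Batf* rose 3.09-fold (log2 fold change 1.63, SE 0.31, adjusted p = 0.0353, edgeR's quasi-likelihood test) relative to the whole library, whereas on the pan-leukocyte scale its log2 fold change was -0.49 (adjusted p = 0.551). It passed in each of 6 other settings on the same libraries, with log2 fold changes of 1.56 to 1.62. With any 1 library left out, the log2 fold change was between 1.40 and 1.82 and *Batf* was no longer called. With any 1 WT library left out, however, edgeR called 0 of all genes tested, so the loss of the call there was not particular to *Batf*.

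*Batf3*, a relative known for its part in dendritic cell development, had 1.21, 1.17 and 1.12 CPM in WT pools 5, 6 and 13 and 1.86 and 0.848 CPM in *Rag1*-/- pools 2 and 7. The counts behind these values were 47, 46 and 37 in WT and 15 and 33 in *Rag1*-/- libraries, and the groups overlapped. Its log2 fold change was 0.17 (SE 0.52, adjusted p = 0.878, edgeR), with a sign that turned without *Rag1*-/- pool 2 (-0.39) and on the pan-leukocyte scale (-2.10).

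*Atf3*, a stress-induced factor that can repress or activate its targets, had 1679, 1497 and 1319 CPM in WT pools 5, 6 and 13 and 539 and 956 CPM in *Rag1*-/- pools 2 and 7. The *Rag1*-/- libraries stood below all WT libraries but differed from each other. The log2 fold change of -0.96 (SE 0.32, adjusted p = 0.117, edgeR) did not pass. On the same 5 libraries *Atf3* was called lower without a filter on low counts (-1.01, adjusted p = 0.0288, edgeR). In DESeq2 its log2 fold change was -0.997 (adjusted p = 0.0203), just short of the fold threshold. It was not called with RLE scaling, library size alone, at least 10 counts in every library or limma. The log2 fold change was -1.53 without *Rag1*-/- pool 7 and -0.58 without *Rag1*-/- pool 2. Without pool 7, 7.98% of all genes tested were called lower and 2 of the 10 AP-1 genes, *Atf3* and *Fosl1*.

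*Jun*, the founding member of the family and a strong activator in dimers with FOS proteins, lies on chromosome 4 (GRCm38, 95049034 to 95052222) in a single exon. It had 1923, 1570 and 1304 CPM in WT pools 5, 6 and 13 and 715 and 708 CPM in *Rag1*-/- pools 2 and 7. The *Rag1*-/- libraries were close to each other and below every WT library. The log2 fold change was -1.14 (SE 0.26) with an adjusted p = 0.0506 in edgeR's quasi-likelihood test, so that *Jun* missed the threshold by a small margin. It passed as lower in each of 6 other settings on the same 5 libraries, with log2 fold changes of -1.21 to -1.16 and adjusted p-values of 0.000245 (DESeq2) to 0.0486 (edgeR with RLE scaling). With any 1 library left out, the log2 fold change was between -1.27 and -0.99 and the adjusted p-values of edgeR were 0.0505 to 0.151.

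*Junb*, a weaker activator that can oppose *Jun* and is known for its part in T helper 2 cytokine expression, lies on chromosome 8 (GRCm38, 84976909 to 84978748). It had 1402, 1361 and 1072 CPM in WT pools 5, 6 and 13 and 1836 and 2049 CPM in *Rag1*-/- pools 2 and 7. The groups did not overlap, and its rank by CPM was 52 to 73 in WT libraries and 27 and 23 in *Rag1*-/- libraries. The log2 fold change of 0.64 (SE 0.24, adjusted p = 0.155, edgeR) did not pass relative to the whole library. On the pan-leukocyte scale *Junb* was called lower (-1.69, adjusted p = 0.0423, edgeR), as were 70.8% of all genes. The median of all genes on that scale was -2.25.

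*Jund*, the member of the group usually expressed in resting cells, had 502, 330 and 321 CPM in WT pools 5, 6 and 13 and 396 and 437 CPM in *Rag1*-/- pools 2 and 7. The groups overlapped, since WT pool 5 was the highest and the other WT pools the lowest. Its log2 fold change was 0.15 (SE 0.26, adjusted p = 0.771, edgeR), with a range of -0.02 to 0.38 when 1 library was left out and a value of -2.27 on the pan-leukocyte scale.

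In the FOS group the estimates of *Fos*, *Fosb* and *Fosl1* were below 0 and that of *Fosl2* above 0 relative to the whole library. *Fos*, the immediate early partner of JUN proteins, had 2258, 1908 and 1799 CPM in WT pools 5, 6 and 13 and 1171 and 1407 CPM in *Rag1*-/- pools 2 and 7. The groups did not overlap, but the log2 fold change of -0.59 (SE 0.25, adjusted p = 0.190, edgeR) did not pass. *Fosb*, a close paralog, had 2976, 2183 and 2144 CPM in WT pools 5, 6 and 13 and 1931 and 1339 CPM in *Rag1*-/- pools 2 and 7. WT pool 5 stood highest, and the gap between the lowest WT and the higher *Rag1*-/- library was narrow. The log2 fold change was -0.55 (SE 0.29, adjusted p = 0.275, edgeR).

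*Fosl1* and *Fosl2* encode FRA1 and FRA2, FOS proteins without the strong activation domain of FOS. *Fosl1* had 489, 455 and 345 CPM in WT pools 5, 6 and 13 and 149 and 264 CPM in *Rag1*-/- pools 2 and 7. The groups did not overlap, with *Rag1*-/- pool 2 the lowest. Its log2 fold change was -1.02 (SE 0.32, adjusted p = 0.104, edgeR). *Fosl1* was called lower with DESeq2 (-1.05, adjusted p = 0.0186) and in edgeR's test without *Rag1*-/- pool 7 (-1.59, adjusted p = 0.0244), but not without *Rag1*-/- pool 2 (-0.63, adjusted p = 0.198).

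*Fosl2* lies on chromosome 5 (GRCm38, 32135801 to 32157842) and was the FOS gene with the opposite sign. It had 708, 1019 and 943 CPM in WT pools 5, 6 and 13 and 1862 and 1680 CPM in *Rag1*-/- pools 2 and 7. Both *Rag1*-/- libraries exceeded every WT library. The log2 fold change of 1.02 (SE 0.25) had an adjusted p = 0.0579 in edgeR's quasi-likelihood test and did not pass. In DESeq2 it was 0.98 with an adjusted p = 0.00212, under the threshold for p but just under the fold threshold, and on the pan-leukocyte scale it was -1.17 (adjusted p = 0.147, edgeR).

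The sources used here do not state whether the counting used strand. If it did not, reads of some members could not be told apart from those of a neighbour on the opposite strand. In GENCODE M21 exons of *Fosl1* share 1163 bases with *Ccdc85b* (at most 1999 counts in a library), those of *Junb* 173 bases with *Prdx2* (at most 4405), those of *Jun* 232 bases with *Junos* (at most 52) and those of *Jund* 877 bases with *Gm11175*, which had 0 counts in every library.

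With DESeq2, 3 of the 10 genes were called: *Batf* higher, against 7.29% of all genes with an adjusted p-value, and *Jun* and *Fosl1* lower, against 7.65%.

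**Figure D2:**
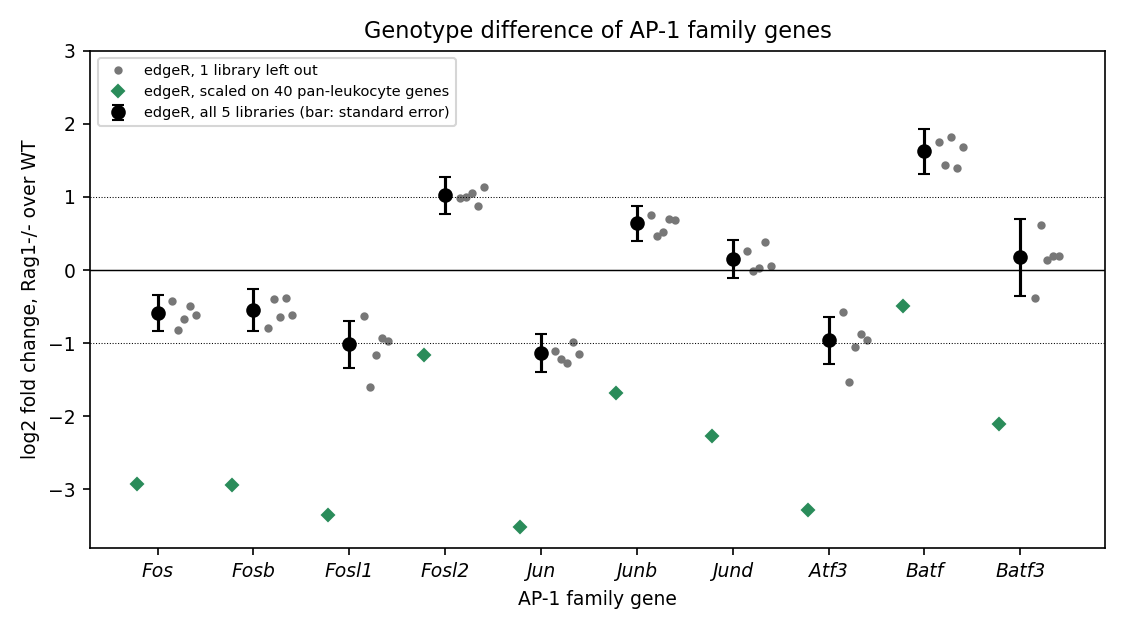
Log2 fold change (*Rag1*-/- over WT) of each AP-1 family gene from edgeR, with all 5 libraries (black, bars are standard errors), with each library left out in turn (grey) and with the libraries scaled on 40 pan-leukocyte genes (green). *Batf* has the highest value (1.63) and *Jun* the lowest (-1.14), and on the pan-leukocyte scale all 10 values are below 0, from -0.49 for *Batf* to -3.51 for *Jun*.

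The libraries stood in the same order from high to low for *Fos*, *Fosl1* and *Atf3* and for the summed level of the 32 keratinocyte genes: WT pools 5, 6 and 13, then *Rag1*-/- pool 7, then *Rag1*-/- pool 2. *Jun* and *Fosb* had the same order among WT libraries, with *Rag1*-/- pool 2 above pool 7. The WT libraries also stood in this order for *Junb*, *Jund* and *Batf3*. Of these, *Junb* had both *Rag1*-/- libraries above every WT library, and *Jund* and *Batf3* had overlapping groups. The share of all genes with such an order was not counted. For *Batf* and *Fosl2* the 5 libraries had WT pool 5 lowest and the *Rag1*-/- libraries highest, as did the summed level of the 40 pan-leukocyte genes. These orders were seen after the values were known, and the part of the keratinocyte and leukocyte lists in them was not tested.

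The scaling of a library cancels in a ratio of counts of 2 genes within that library. A difference in makeup between libraries does not cancel. The part of the keratinocyte and pan-leukocyte lists in these ratios, and in the family shares below, was not tested. The pairs below were chosen after the values were seen, so they are a description with no test. *Junb* over *Jun* was 0.729, 0.866 and 0.822 in WT pools 5, 6 and 13 and 2.57 and 2.89 in *Rag1*-/- pools 2 and 7, which makes the mean ratio 3.39-fold higher in *Rag1*-/- libraries. *Jun* thus had more counts than *Junb* in every WT library and fewer in both *Rag1*-/- libraries. *Fosl2* over *Fos* was 0.314, 0.534 and 0.524 in WT pools 5, 6 and 13 and 1.59 and 1.19 in *Rag1*-/- pools 2 and 7, a mean 3.04-fold higher. Here too the ratio was below 1 in each WT library and above 1 in each *Rag1*-/- library. *Fosl2* over *Fosl1* was 1.45 to 2.73 in WT libraries and 12.5 and 6.37 in *Rag1*-/- pools 2 and 7. *Junb* over *Fosb* was 0.471 to 0.623 in WT libraries and 0.951 and 1.53 in *Rag1*-/- libraries, and *Batf* over *Batf3* was 4.72 to 9.70 in WT and 13 and 32.5 in *Rag1*-/- libraries. In each of these 5 pairs the groups did not overlap. Except for *Batf* over *Batf3*, this followed from the choice of pairs. The CPM of the first gene was higher, and that of the second lower, in both *Rag1*-/- libraries than in any WT library. A ratio within a library shows that 2 genes differed unequally between genotypes, not which of them differed.

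**Figure D3:**
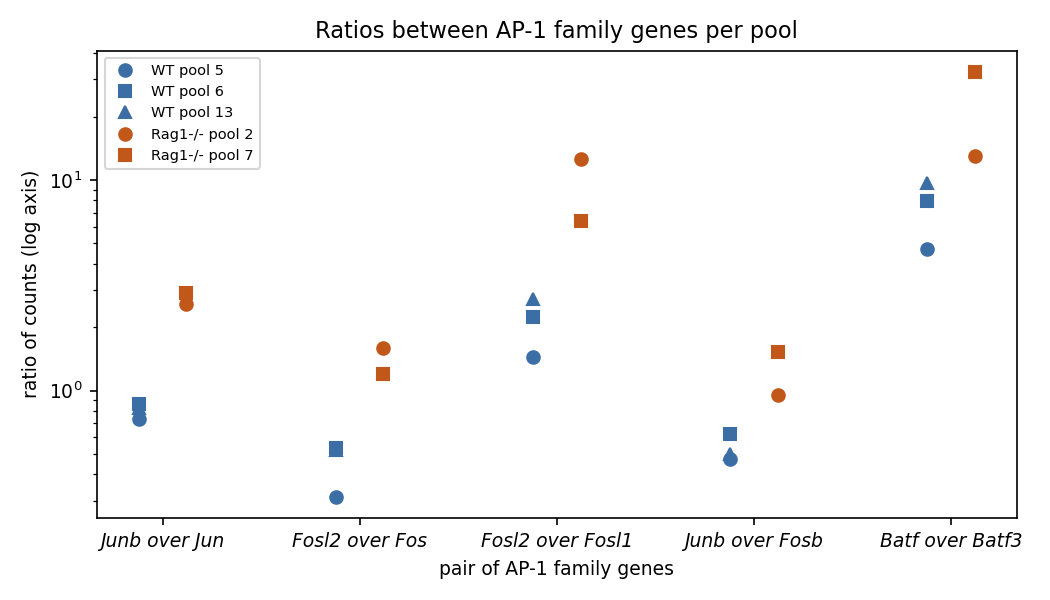
Ratio of the counts of 2 AP-1 family genes within a library (log axis) for 5 pairs, in the 3 WT pools (blue) and the 2 *Rag1*-/- pools (orange). The *Rag1*-/- pools lie above the WT pools in every pair, and *Junb* over *Jun* moves from 0.729 to 0.866 in WT to 2.57 and 2.89 in *Rag1*-/-. The pairs were chosen after the values were seen.

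The makeup of the family, as shares of its transcripts per length, differed accordingly. *Junb* made up 17.1% ± 1.15 (SD, n = 3) of the family in WT libraries and 32.3% ± 0.165 (SD, n = 2) in *Rag1*-/- libraries. *Fosl2* made up 3.43% ± 0.952 and 8.34% ± 1.20, and *Batf* 0.230% ± 0.0967 and 0.830% ± 0.0165. These 3 genes held larger shares in both *Rag1*-/- libraries than in any WT library, as did *Jund* (3.25% ± 0.461 and 4.43% ± 0.0162). *Jun* made up 12.3% ± 0.726 in WT and 6.86% ± 0.542 in *Rag1*-/- libraries, *Atf3* 18.6% ± 0.316 and 11.4% ± 3.72, and *Fos* 23.2% ± 0.775 and 18.7% ± 1.07. The shares of these genes and of *Fosl1* (6.17% ± 0.469 and 3.65% ± 1.20) were smaller in both *Rag1*-/- libraries than in any WT library. Those of *Fosb* and *Batf3* overlapped between the genotypes. Shares of 1 family sum to 100%, so a larger share of 1 gene lowers the others.

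Within the JUN group alone, *Jun* held 37.6% ± 1.38 per length in WT and 15.7% ± 1.10 in *Rag1*-/- libraries, and *Junb* 52.4% ± 2.73 and 74.1% ± 1.05. The share of *Jund* was 9.99% ± 1.42 and 10.2% ± 0.0545 and overlapped. Without division by length it did not overlap: 10.1% to 13.1% in WT libraries and 13.4% and 13.7% in *Rag1*-/- pools 2 and 7. The summed level per length of the JUN group was 1330 ± 219 CPM per kb in WT and 1424 ± 90.0 in *Rag1*-/- libraries, a difference smaller than the SD in WT. Within the FOS group, *Fosl2* held 7.05% ± 1.94 in WT and 18.9% ± 1.32 in *Rag1*-/- libraries, and the summed level was 1975 ± 250 CPM per kb and 1435 ± 3.83.

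**Figure D4:**
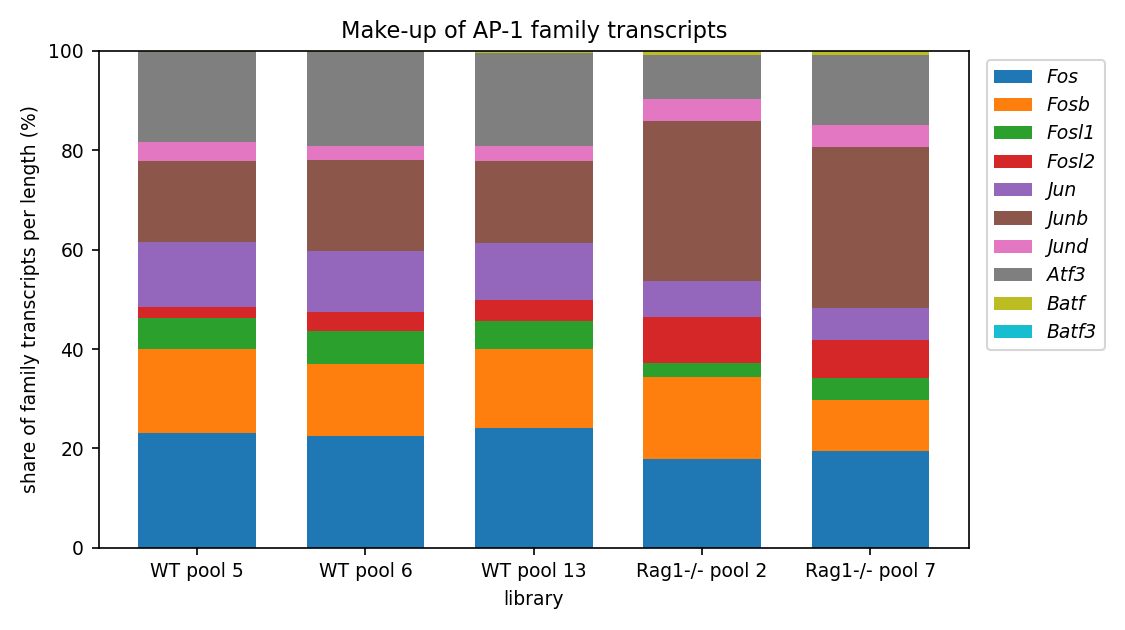
Share of each AP-1 family gene in the family's transcripts per length (%), stacked to 100, in the 5 libraries. The *Junb* block is 16.4% to 18.4% in WT pools and 32.2% and 32.4% in *Rag1*-/- pools, and the *Jun* block is 11.5% to 12.98% and 7.24% and 6.47%.

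Genes around the family were described from 7 lists. Their counts come from the same edgeR test and are read beside the 3.57% of all genes called higher and the 2.16% called lower, and beside the median log2 fold change over all genes, 0.02. Counts on the pan-leukocyte scale are read beside 15 of all 19011 genes called higher there and 70.8% called lower. In the main test the median log2 fold change over the 10 AP-1 genes was -0.20. The calls rest on *Rag1*-/- pool 2 and on all WT libraries: with any 1 of these left out, edgeR called none of all genes tested, with 3521 to 5200 at an unadjusted p under 0.05.

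Of 37 other basic leucine zipper genes, which include dimer partners and competitors, 35 were tested (*Cebpe* and *Nrl* were too low), 1 was called higher and 2 lower, and their median was 0.03. *Nfil3*, a factor needed for innate lymphoid cell development, rose from 116 ± 16.1 CPM (SD, n = 3) in WT to 241 ± 12.1 CPM (SD, n = 2) in *Rag1*-/- libraries (log2 fold change 1.09, SE 0.20, adjusted p = 0.0332, edgeR). *Bach1*, a repressor that competes at AP-1-like sites, fell from 265 ± 7.77 to 113 ± 5.05 CPM (-1.19, SE 0.19, adjusted p = 0.0306), and *Nfe2l3* fell from 10.3 ± 1.14 to 3.52 ± 1.12 CPM (-1.48, SE 0.33, adjusted p = 0.0474). *Bach2*, the lymphocyte relative of *Bach1*, had 17.9 ± 6.66 and 57.3 ± 34.7 CPM (1.68, SE 0.43, adjusted p = 0.0633). *Jdp2*, a JUN dimerization partner, had 28.8 ± 6.15 and 44.3 ± 3.02 CPM (0.66, adjusted p = 0.121), and *Maf* 189 ± 13.1 and 198 ± 14.6 CPM (0.10, adjusted p = 0.784). On the pan-leukocyte scale none of the 35 was called higher and 30 were called lower.

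Upstream, all 28 genes of the MAP kinase cascade were tested, 1 was called higher and 0 lower, and their median was 0.03. The 1 was *Mapk11*, which encodes p38 beta and rose from 16.8 ± 5.46 to 56.8 ± 14.2 CPM (1.78, SE 0.32, adjusted p = 0.0328, edgeR). *Mapk14*, p38 alpha, had 116 ± 14.5 and 207 ± 25.8 CPM (0.86, SE 0.20, adjusted p = 0.0509). The JNK gene *Mapk8* (60.1 ± 2.50 and 51.9 ± 8.29 CPM, -0.18, adjusted p = 0.585) overlapped between the genotypes. Scaled on the pan-leukocyte genes, 0 of the 28 were called higher and 23 lower.

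Of 11 MAP kinase phosphatase genes, which are induced by MAP kinase signals and switch them off, 3 were called higher and 0 lower, with a median of -0.04 over the list. The split did not hold without *Rag1*-/- pool 7, where lower calls outnumbered higher ones, as they did over all genes tested. *Dusp10* rose from 36.0 ± 13.1 to 103 ± 4.62 CPM (1.55, SE 0.32, adjusted p = 0.0401, edgeR). *Dusp2* rose from 22.5 ± 6.43 to 57.7 ± 7.71 CPM (1.40, SE 0.27, adjusted p = 0.0360), and *Dusp4* from 20.8 ± 4.36 to 62.4 ± 36.0 CPM (1.59, SE 0.36, adjusted p = 0.0488). *Dusp1*, the most familiar of them, had 795 ± 84.5 and 987 ± 130 CPM (0.34, SE 0.22, adjusted p = 0.379). On the pan-leukocyte scale 0 of the 11 were called higher and 7 lower.

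SRF and its ternary complex partners switch on *Fos* and other immediate early genes. Of these 6 genes 1 was called higher, *Elk3*, from 34.7 ± 1.76 to 86.9 ± 18.0 CPM (1.35, SE 0.19, adjusted p = 0.0306, edgeR), and none lower. *Srf* had 219 ± 19.3 and 137 ± 27.4 CPM (-0.64, SE 0.22, adjusted p = 0.128), without overlap, and *Elk1* 18.5 ± 2.12 and 18.1 ± 3.79 CPM (0.01, adjusted p = 0.983). Of 7 IRF and NFAT genes, which bind DNA together with AP-1 dimers, 1 was called higher and 0 lower. *Irf4*, the partner of BATF, rose from 21.1 ± 6.34 to 61.3 ± 21.2 CPM (1.56, SE 0.30, adjusted p = 0.0363, edgeR), and *Irf8* had 15.3 ± 2.53 and 22.4 ± 9.02 CPM with overlapping groups (0.61, adjusted p = 0.262). On the pan-leukocyte scale none of the genes of these lists was called higher and 10 of the 13 were called lower.

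Of 25 textbook AP-1 targets 5 were called higher and 0 lower, with a median of 0.19. The absence of lower calls did not hold in every setting: 7 were called higher and 3 lower with DESeq2, and 6 higher and 4 lower without a filter on low counts. When *Rag1*-/- pool 7 was left out, lower calls outnumbered higher ones, as they did over all genes tested. The 5 higher genes of the main test were *Csf2*, *Il13*, *Areg*, *Il5* and *Tnf*, cytokines and a growth factor known to be made by activated ILC2s and other leukocytes. Of these, 3 (*Il13*, *Areg* and *Il5*) also stand in the ILC2 marker list. *Ivl* and *Lor*, which also stand in the keratinocyte marker list, had log2 fold changes of -1.90 and -1.56, neither of them called. *Csf2*, which encodes GM-CSF, rose from 4.36 ± 2.21 to 40.2 ± 22.6 CPM (3.22, SE 0.54, adjusted p = 0.0307, edgeR), and *Tnf* from 24.6 ± 6.19 to 56.4 ± 6.40 CPM (1.24, SE 0.26, adjusted p = 0.0428). Of the 25, 0 were called higher and 15 lower on the pan-leukocyte scale.

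Of 28 other immediate early and stress genes 0 were called higher and 3 lower, with a median of -0.00. *Egr1* fell from 1466 ± 180 to 620 ± 134 CPM (-1.20, SE 0.27, adjusted p = 0.0469, edgeR), *Egr3* from 104 ± 11.4 to 34.7 ± 6.61 CPM (-1.54, SE 0.23, adjusted p = 0.0306) and *Myc* from 245 ± 20.6 to 112 ± 6.80 CPM (-1.10, SE 0.20, adjusted p = 0.0329). The sum of the 28 genes was 14902 to 15384 CPM in WT libraries and 14277 and 13996 CPM in *Rag1*-/- libraries. On the pan-leukocyte scale 0 of the 28 were called higher and 26 lower.

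**Figure D5:**
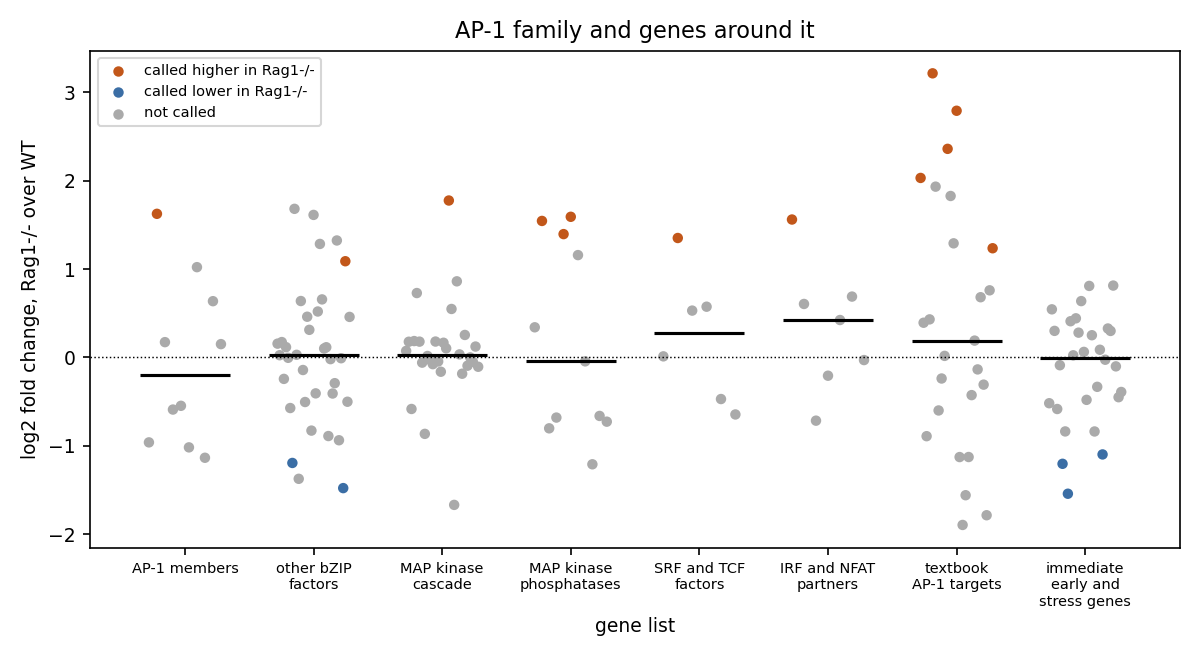
Log2 fold change (*Rag1*-/- over WT, edgeR) of each tested gene of the AP-1 family and of 7 lists around it, with the list median as a bar and called genes in colour. Called genes are few in every list, and the 5 higher genes among the textbook targets span 1.24 to 3.22. On the pan-leukocyte scale no gene of these lists was called higher. Of all 19011 genes tested, 15 were called higher and 70.8% lower on that scale.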

How the data were processed

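Sorted dILC2s were sequenced by the authors as 3 WT and 2 *Rag1*-/- pools, and libraries were grouped by the genotype in the labels. By the study's methods the authors counted reads on genes of GRCm38, and they deposited raw counts per gene with a transcript length for each gene, and a normalized signal per gene. The submitters' processing notes name STAR 2.5, featureCounts 1.5.0-p1 and DESeq2 1.8.2. They list GRCm39 beside GRCm38, and the sources differ on the annotation release. Coordinates of the members in the deposited table overlap their genes in GENCODE M21, which is on GRCm38. The strand setting is not given in the sources used here. The raw counts were used for every main result, and the deposited signal was used in 1 alternative. Total counts per library, which set the precision, ranged from 8050562 to 39477243, and limits from 3 counts cover counting error only.

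The genotype term was tested by quasi-likelihood in edgeR 4.0.16 (R 4.3.3) after filterByExpr and TMM scaling. P-values were adjusted by Benjamini-Hochberg over all 19011 genes tested. A gene was called when the adjusted p was less than 0.05 and the log2 fold change exceeded 1 in size. The pools are separate pools of mice by the study's methods. The fits were tested on simulated data, where DESeq2 recovered more changed genes than edgeR and also made more false calls. Members and lists were chosen with earlier results of these data known, so no list was tested as a set. The genes named are the 10 members, up to 5 called genes of each list by smallest p, and a fixed set of partners, kinases and markers, of which a gene is not reported here. A repeated symbol was taken from its row with the most counts.

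The alternatives were RLE scaling, library size alone, scaling on 40 pan-leukocyte genes, a filter of 10 counts per library or none, DESeq2 1.42.0, limma 3.58.1 on log2 of the deposited signal with a pseudocount of 1, the adjusted p-value alone, each library left out, and shares without division by length. A length from GENCODE M21 exons was added after seeing the data. Promoters were taken from RefSeq.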

Additional observations from a re-analysis of the deposited data

How the results depend on the processing

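Of the 10 AP-1 genes, 1 was called, and 2 were called with RLE scaling, with library size alone, with at least 10 counts in every library and with limma on the deposited signal. DESeq2 called 3, no filter on low counts gave 4, and scaling on the pan-leukocyte genes gave 7, all lower. With 1 library left out, 0 to 2 were called, 0 without any 1 of the WT pools or without *Rag1*-/- pool 2 (4 to 6 of the 10 at an unadjusted p under 0.05 in edgeR) and 2 without *Rag1*-/- pool 7. Over all genes 1090 were called, 13467 on the pan-leukocyte scale, 2645 without a filter, 2453 with DESeq2, and 0 to 2409 with 1 library left out. Calls were 62.3% higher ones in the reported test, 0.111% on the pan-leukocyte scale, 43.7% without a filter and 48.8% with DESeq2. The signs of *Fosl2* (-1.17), *Junb* (-1.69), *Jund* (-2.27), *Batf* (-0.49) and *Batf3* (-2.10) turned on the pan-leukocyte scale, which lowers all genes by construction. With 1 library left out the sign turned for *Jund* (-0.0168 to 0.38) and *Batf3* (-0.39 to 0.61), and the cause was not tested. Of the alternative values of single members, 102 kept their sign and side of the threshold, 16 passed it, 5 no longer did and 7 turned. Counts of called genes in the 7 lists around the family stayed within 1.5 times in 41 cases, were larger in 22 and smaller in 28. All the smaller ones came from leaving out 1 WT library or *Rag1*-/- pool 2. Those fits made no call over all genes either, so these cases do not bear on the lists in particular. Without *Rag1*-/- pool 7 lower calls outnumbered higher ones over all genes tested. The same held among other basic leucine zipper genes, the MAP kinase cascade, the phosphatases, the textbook targets and the immediate early genes. Without division by length, the difference in family share was 11.6 percentage points for *Fosl2*, 10.03 for *Junb*, -6.99 for *Jun* and 0.211 for *Batf*, and with the union of GENCODE M21 exons as the length, chosen after seeing the data, no member turned. No paired analysis was possible because the groups share no replicate numbers. *Rag1*-/- pool 2 was the shallowest library, and *Batf3* with 15 counts there is the member most limited by depth.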

Other observations

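Of the 10 members, 4 lie near another member in the genome. *Fos* and *Batf* lie 209 kb apart on chromosome 12 (GRCm38), and their log2 fold changes relative to the whole library were -0.59 (not called) and 1.63 (called higher). *Batf3* and *Atf3* lie 61.4 kb apart on chromosome 1, and their log2 fold changes were 0.17 and -0.96, neither of them called. On the pan-leukocyte scale all 4 were below 0.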
